A study of Homo sapiens with 16 samples.

Results

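The genes described here are 10 human Kruppel-like factors, KLF2, KLF3, KLF4, KLF5, KLF6, KLF7, KLF9, KLF10, KLF11 and KLF13, chosen by name from the 57820 genes of the table. They were picked because KLF10 moved in opposite directions in 2 cell lines, so KLF10 is described below without a test in any comparison, and the day 6 over day 1 changes are described without a test for all 10 genes. The 16 RNA-seq libraries came from HEK-293 cells, a human embryonic kidney line, carrying a Flag-Cherry-HCF-2 transgene at a Flp-In site and grown with 1 μg/ml doxycycline, which switches the transgene on (the design text of the series gives the dose in μl). HCF-2, encoded by HCFC2, is a relative of the transcriptional coregulator HCF-1. One cell line made HCF-2 Fn3nc*, with point mutations in the segments Fn3n and Fn3c, and the other HCF-2 WT. The same days (1, 2, 4 and 6 after doxycycline) and 2 libraries per day were used for each, giving 8 groups. Every group therefore carried the transgene, its tags, doxycycline and the cells' own HCFC2, and no uninduced library was analysed here. Both cell lines were selected in hygromycin after recombination, and the sources used here do not say whether each is 1 clone. According to the paper, the HCF-2 proteins were induced in duplicate. The paper does not say whether duplicates were separate cultures before induction. The p-values thus measure only the spread between duplicate libraries, and a difference between the 2 cell lines cannot be told apart from a difference between the proteins they make.

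Kruppel-like factors are transcription factors that end in C2H2 zinc fingers and bind GC-rich and CACCC-containing DNA in promoters and enhancers. The zinc fingers are alike across the family, while the remainder of each protein recruits different partners. KLF2, KLF4, KLF5, KLF6 and KLF7 belong to a branch with mostly activating members that can bind p300 and related acetyltransferases. KLF3 is a repressor that acts through the corepressor CtBP. KLF9, KLF10, KLF11 and KLF13 belong to a branch that recruits the corepressor SIN3A. Several of these genes are switched on quickly by signals reaching the cell. KLF10 and KLF11 were first known as TGF-β-inducible early genes, KLF9 responds to glucocorticoids, and KLF6 and KLF4 can respond to serum.

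The genes lie apart on the chromosomes. In GRCh37 coordinates, KLF6 is at chr10:3818188-3827473 on the minus strand, and KLF5 at chr13:73629114-73651679 on the plus strand. KLF9 occupies chr9:72999520-73029573 on the minus strand, and KLF4 is on the same chromosome and strand at chr9:110247133-110252763. KLF11 is at chr2:10182976-10194963 on the plus strand, and KLF7 spans 99.7 kb at chr2:207938861-208038580 on the minus strand. KLF13 is the longest, with 108.8 kb at chr15:31619038-31727868 on the plus strand. KLF3 is at chr4:38665818-38703138 and KLF2 at chr19:16435637-16439496, both on the plus strand. Antisense transcripts are annotated across parts of KLF3 (KLF3-AS1, 730 bases shared), KLF4, KLF7 and KLF11. The sources used here do not say whether reads were counted by strand, and without strand the reads of such a pair cannot be told apart.

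Promoter sequences are shown for some of the members that fell together or rose together below. They come from RefSeq (GRCh38.p14), held 8 of the 10 genes with 13 promoters, and each was matched exactly and only once to GRCh37. KLF3 and KLF10 were not among them. The stretches shown, 150 bases each, end at or before the RefSeq start of transcription and avoid annotated exons of the 10 genes. Exons of other genes were not checked. Those of KLF5 (chr13:73632993-73633142, plus strand) and KLF6 (chr10:3827474-3827623, minus strand) belong to genes that fell in HCF-2 Fn3nc* cells between days 1 and 2. Those of KLF9 (chr9:73029574-73029723, minus strand) and KLF11 (chr2:10184152-10184301, plus strand) belong to genes that rose in HCF-2 WT cells between days 2 and 4. KLF5 and KLF11 each had another promoter further upstream, which is not printed. That of KLF5 (from chr13:73628864) held none of the motifs put in capitals below. That of KLF11 (from chr2:10183706) held GC boxes but no CRE. The printed stretches of both genes lie within the gene spans given above. KLF7, which also fell, had several promoters and is not shown. Capitals mark a CRE (TGACGTCA), its half-site (TGACG, which also lies within a CRE), a GC box (GGGCGG) or a CCAAT box (CCAAT) on either strand.
KLF5: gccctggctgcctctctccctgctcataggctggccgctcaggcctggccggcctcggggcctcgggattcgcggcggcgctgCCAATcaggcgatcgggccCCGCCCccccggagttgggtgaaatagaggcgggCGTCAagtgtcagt
KLF6: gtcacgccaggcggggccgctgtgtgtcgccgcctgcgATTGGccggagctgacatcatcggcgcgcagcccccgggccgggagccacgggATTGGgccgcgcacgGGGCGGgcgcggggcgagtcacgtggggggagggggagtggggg
KLF9: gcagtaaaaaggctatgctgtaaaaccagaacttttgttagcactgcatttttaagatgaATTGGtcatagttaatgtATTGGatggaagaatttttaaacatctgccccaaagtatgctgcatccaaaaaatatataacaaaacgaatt
KLF11: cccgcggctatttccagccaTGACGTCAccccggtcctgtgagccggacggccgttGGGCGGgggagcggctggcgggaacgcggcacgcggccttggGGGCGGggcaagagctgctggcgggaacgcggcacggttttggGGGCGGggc

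Over windows of 300 bases, the complete CRE was present in 1 of the 13 member promoters, that of KLF11 printed above, and in 1.85% of 35116 promoters of all genes. GC boxes were present in 8 of the 13, and in 45% of all promoters. CCAAT boxes were in 6 of the 13 and 34.6% of all, the CRE half-site in 4 of the 13 and 24.6% of all, and CACCC, which was not put in capitals, in 7 of the 13 and 59.9% of all. A CArG box was found in 1 promoter of KLF7 (1.29% of all promoters) and a MEF2 site in that of KLF2 (2.99%). The KLF9 stretch is rich in A and T and held CCAAT boxes alone, while the KLF11 stretch held several GC boxes beside its CRE. These matches describe letters in a window, and binding was not measured.

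Libraries held 20270033 to 31006448 expected counts. The pair from HCF-2 Fn3nc* cells on day 1 was the deepest, with 31132 and 31176 genes detected. The second HCF-2 WT library of day 4 stood apart, with 36469 genes detected against 28083 in its duplicate at a similar depth (25709232 and 24197342 expected counts), and this pair differed most of the 8 (chi-square per gene 17.6, the others 2.57 to 10.7). Transcripts of HCFC2, from the transgene and the cells' own gene together, were at 893 to 1479 CPM (counts divided by library size after TMM scaling, a correction for composition) in HCF-2 Fn3nc* and 917 to 1362 CPM in HCF-2 WT. The 9 HEK-293 marker genes had counts in every library, from VIM at 479 to 943 CPM down to EYA1 at 7.79 CPM or more, LHX1 at 1.58 to 4.33 CPM, and PAX2 and NEFM under 2 CPM, and their sum was 848 to 1060 CPM in HCF-2 Fn3nc* and 1255 to 1517 CPM in HCF-2 WT. Summed over their lists, endothelial markers were at 1.01 to 2.72 CPM in HCF-2 Fn3nc* and 0.663 to 1.95 CPM in HCF-2 WT. Blood cell markers summed to 0.449 to 1.70 CPM and 0.220 to 1.24 CPM, squamous epithelium markers to 0.0446 to 0.639 CPM and 0.0415 to 0.896 CPM, and hepatocyte markers to 0.0748 to 1.15 CPM and 0.0831 to 0.623 CPM, in the same order of cell lines. Fibroblast markers summed to 7.67 to 11.2 CPM in HCF-2 Fn3nc* and 4.57 to 12.0 CPM in HCF-2 WT, with LUM, the lumican gene, at 0.833 to 3.37 CPM in HCF-2 Fn3nc* and at most 0.312 CPM in HCF-2 WT. Except for the fibroblast sum, the day 1 sums of HCF-2 Fn3nc* lay above those of its later days, as given beside the results below. Defining markers of these cell types were at 0 in many libraries, CD3E in all 8 of HCF-2 Fn3nc*. Fewer cells making a transcript and less transcript per cell cannot be told apart in these bulk libraries.

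KLF10 went opposite ways in the 2 cell lines, which is why it was chosen. The gene lies at chr8:103661012-103667953 (GRCh37) on the minus strand and spans 6.9 kb. In HCF-2 Fn3nc* cells its duplicates were at 89.8 and 86.5 CPM on day 1, 42.4 and 46.0 on day 2, 17.5 and 17.5 on day 4, and 15.6 and 14.7 on day 6. In HCF-2 WT cells they were at 14.7 and 15.0 CPM on day 1, 13.4 and 16.0 on day 2, 24.1 and 19.9 on day 4, and 35.7 and 35.3 on day 6. The duplicates of the mutant line on day 6 overlapped those of the WT line on day 1. The fitted log2 fold change of day 6 over day 1 was -2.57 in HCF-2 Fn3nc* and 1.24 in HCF-2 WT, given here as a description. Behind these values stood 305 to 2811 expected counts in HCF-2 Fn3nc* and 324 to 919 in HCF-2 WT.

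**Figure D1:**
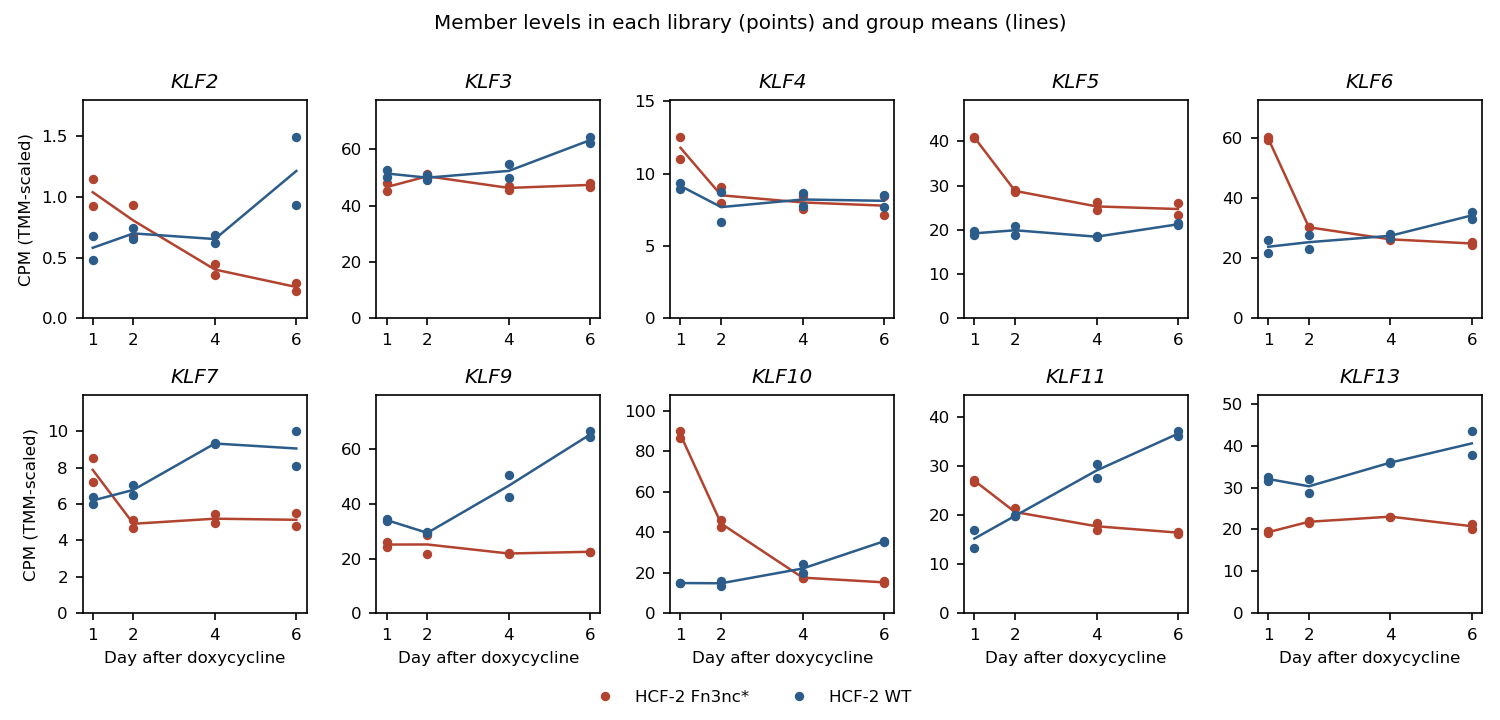
TMM-scaled CPM of each of the 10 genes (vertical axis, from 0) against days after doxycycline, with a point for each library and a line through the mean of 2 libraries. KLF10 and KLF6 are highest in HCF-2 Fn3nc* on day 1, near 88.2 and 59.8 CPM on average, whereas KLF9 and KLF11 climb in HCF-2 WT to day 6 means of 65.5 and 36.7 CPM.

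The changes of KLF10 by step are likewise descriptions of why it was chosen. In HCF-2 Fn3nc* cells, the 17.5 and 17.5 CPM of day 4 lay below the 42.4 and 46.0 CPM of day 2, a log2 fold change of -1.35 ± 0.08 (standard error, n = 2 libraries per day). In HCF-2 WT cells, the 24.1 and 19.9 CPM of day 4 lay above the 13.4 and 16.0 CPM of day 2, a log2 fold change of 0.58 ± 0.12. The difference between these 2 changes, HCF-2 Fn3nc* minus HCF-2 WT, was -1.92 ± 0.14 on the log2 scale. With each library left out in turn, the change in the mutant line ranged from -1.41 to -1.28, and that in the WT line from 0.43, without the first WT library of day 4, to 0.72. Without the second WT library of day 4, which stood apart, the WT change was 0.71.

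Between the cell lines, KLF10 on day 2 had 42.4 and 46.0 CPM in HCF-2 Fn3nc* against 13.4 and 16.0 CPM in HCF-2 WT (log2 difference 1.59 ± 0.10). On day 4 the order had turned, with 17.5 and 17.5 CPM in HCF-2 Fn3nc* and 24.1 and 19.9 CPM in HCF-2 WT. That log2 difference was -0.33 ± 0.10, and -0.48 without the second WT library of day 4. The log2 differences of HCF-2 Fn3nc* over HCF-2 WT were 2.57 on day 1 and -1.22 on day 6.

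Per length of transcript, measured as FPKM, KLF10 moved through the order of the family. On day 1 it held rank 1 of the 10 genes in HCF-2 Fn3nc* cells (30.4 and 29.5 FPKM) and rank 6 in HCF-2 WT cells (4.68 and 4.83 FPKM). On day 6 it held rank 4 in HCF-2 Fn3nc* (5.50 and 4.98 FPKM) and rank 3 in HCF-2 WT (11.4 and 11.2 FPKM). The summed FPKM of all 10 genes was 96.2 and 97.3 in HCF-2 Fn3nc* on day 1, of which KLF10 made up 31.6 and 30.3%. In HCF-2 WT on day 1 the sum was 49.8 and 52.3, and the share of KLF10 9.41 and 9.24%. By day 6 the sums were 56.4 and 49.6 in HCF-2 Fn3nc* and 75.2 and 74.1 in HCF-2 WT, with shares of 9.74 and 10.0% against 15.1 and 15.1%. The FPKM values of all genes summed to 883713 to 948950 in HCF-2 Fn3nc* libraries and 1027278 to 1119960 in HCF-2 WT libraries, so FPKM was used only for order within a library.

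Neighbours in that order often overlapped. In HCF-2 Fn3nc* cells on day 1, KLF10 stood clear of KLF5 (16.5 and 18.2 FPKM), whose duplicates overlapped those of KLF6 (14.9 and 16.6 FPKM). KLF3 followed at 10.1 and 9.49 FPKM and KLF11 at 7.42 and 7.22 FPKM, both clear of their neighbours. Below them KLF9 (5.18 and 4.87 FPKM) and KLF4 (5.07 and 4.71 FPKM) overlapped. KLF3 was first in HCF-2 WT cells on day 1, with 10.6 and 10.2 FPKM, ahead of KLF5 with 7.69 and 7.62 FPKM. On day 6 KLF3 (12.3 and 12.6 FPKM) and KLF9 (12.1 and 12.5 FPKM) shared the top in HCF-2 WT, and KLF3 (10.3 and 10.1 FPKM) and KLF5 (10.9 and 9.45 FPKM) did so in HCF-2 Fn3nc*. KLF7 and then KLF2 were last in both cell lines on both days.

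**Figure D2:**
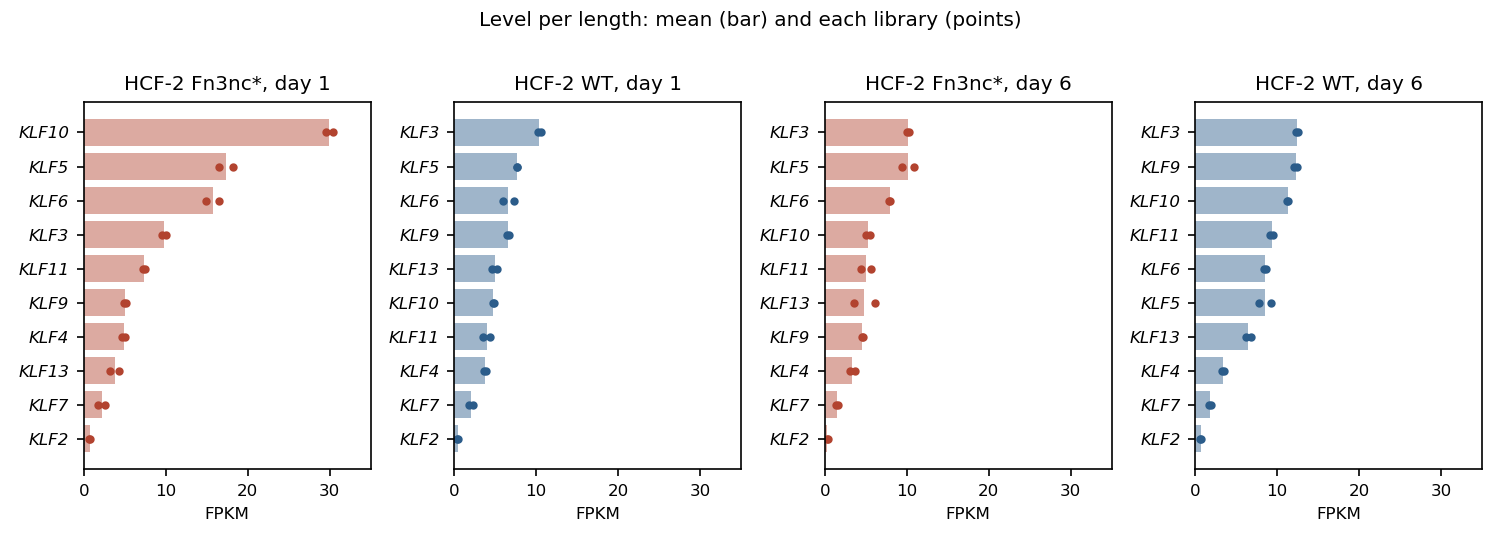
FPKM (horizontal axis, from 0) of the 10 genes on days 1 and 6 in each cell line, ordered by the mean of 2 libraries (bar), with a point for each library. KLF10 is first in HCF-2 Fn3nc* on day 1 at a mean of 30.0 FPKM, while KLF3 is first in the other panels.

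KLF5, KLF6 and KLF7 fell in HCF-2 Fn3nc* cells between days 1 and 2, which is 3 of the 4 genes of the mostly activating branch that were in the fits. A gene is said to have risen, fallen or been called where its adjusted p was below 0.05 and its log2 change larger than 0.5. KLF6, a tumour suppressor in prostate and other epithelia, was at 30.2 and 30.3 CPM on day 2 against 59.3 and 60.4 CPM on day 1, a fall by 1.00 ± 0.06 on the log2 scale (adjusted p = 7.84e-06, edgeR). KLF5, a factor of proliferating intestinal and other epithelia, was at 29.0 and 28.6 CPM on day 2 against 40.7 and 41.0 CPM on day 1 (log2 fold change -0.53 ± 0.07, adjusted p = 0.000463, edgeR). KLF7, known for axon growth in mouse neurons, was at 4.68 and 5.13 CPM on day 2 against 7.22 and 8.53 CPM on day 1 (log2 fold change -0.70 ± 0.15, adjusted p = 0.00417, edgeR). In each of the 3, both day 2 libraries lay below both day 1 libraries, which restates calls made on the same libraries. KLF4, one of the reprogramming factors, had a log2 fold change of -0.49 ± 0.13 (adjusted p = 0.0146), and KLF11 one of -0.41 ± 0.08 (adjusted p = 0.00273), both short of 0.5.

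Thus 3 of the 8 tested members fell, 0 rose, and KLF10 (log2 fold change -1.02) was not tested. The background for falls was 10.7% of the 18925 genes tested, and for rises 4.18%. The median log2 fold change was -0.49 over the 9 members in the fit, untested KLF10 included, and -0.03 over all genes. The calls of KLF7 and KLF5 depended on a library. KLF7 had an adjusted p of 0.0567 without the second day 1 library, and KLF5 a log2 fold change of -0.49 without the second day 2 library. Without either of these libraries, KLF4 was called too, at -0.59 and -0.57.

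Other measures of the libraries moved in the same step. In HCF-2 Fn3nc* the summed endothelial markers were at 1.28 to 1.58 CPM on day 2 against 2.44 to 2.72 CPM on day 1, where the 4 of 5 genes in the table were all short of the filter. Blood cell markers summed to 0.639 to 0.766 CPM on day 2 against 1.53 to 1.70 CPM on day 1, mostly ITGAM, while CD3E was at 0. Squamous epithelium markers were at 0.225 to 0.256 CPM on day 2 against 0.577 to 0.639 CPM on day 1, and hepatocyte markers at 0.298 to 0.495 CPM against 0.735 to 1.15 CPM, in that order of days. KLF6 was at 30.2 and 30.3 CPM on day 2 against 59.3 and 60.4 CPM on day 1. Of the 8 HEK-293 markers past the filter, 3 fell and 0 rose, namely KRT18 (log2 fold change -0.91 ± 0.07, adjusted p = 1.64e-05, edgeR), KRT8 (-0.62 ± 0.06, adjusted p = 5.03e-05) and LHX1 (-0.59 ± 0.19, adjusted p = 0.0364). Day 2 libraries held 20902847 and 23373715 expected counts against 30736213 and 31006448 on day 1. The part of these markers and of depth in the KLF values was not tested.

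Over the same days no member was called in HCF-2 WT cells. KLF6 was at 27.6 and 23.1 CPM on day 2 and 21.6 and 26.0 CPM on day 1, with overlapping duplicates. By edgeR 0 of the 8 tested members were called, as were 0 by DESeq2, and 1 (KLF11) had an unadjusted p under 0.05, with a log2 fold change of 0.39 ± 0.12. Of all genes, 0.0264% were called higher and 0.275% lower. The difference between the 2 changes was itself tested. It was -1.07 ± 0.13 for KLF6 (adjusted p = 0.00017), -0.56 ± 0.11 for KLF5 (adjusted p = 0.00433), -0.81 ± 0.20 for KLF7 (adjusted p = 0.0132) and -0.78 ± 0.14 for KLF11 (adjusted p = 0.00222), each as HCF-2 Fn3nc* minus HCF-2 WT on the log2 scale by edgeR. These were 4 of 8 tested members, all lower, against 6.35% of all genes called lower and 3.89% called higher. KLF10, untested, differed by -0.98.

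The calls for KLF5 and KLF7 in this difference were lost with single libraries. KLF7 had an adjusted p of 0.0577 without the first HCF-2 WT library of day 1, 0.0682 without the first of day 2, 0.0723 without the second HCF-2 Fn3nc* library of day 1 and 0.0574 without the first of day 2. KLF5 stood at -0.49 without the second HCF-2 WT library of day 1 and at -0.46 without the first of day 2. KLF6 and KLF11 were called whichever library was left out.

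**Figure D3:**
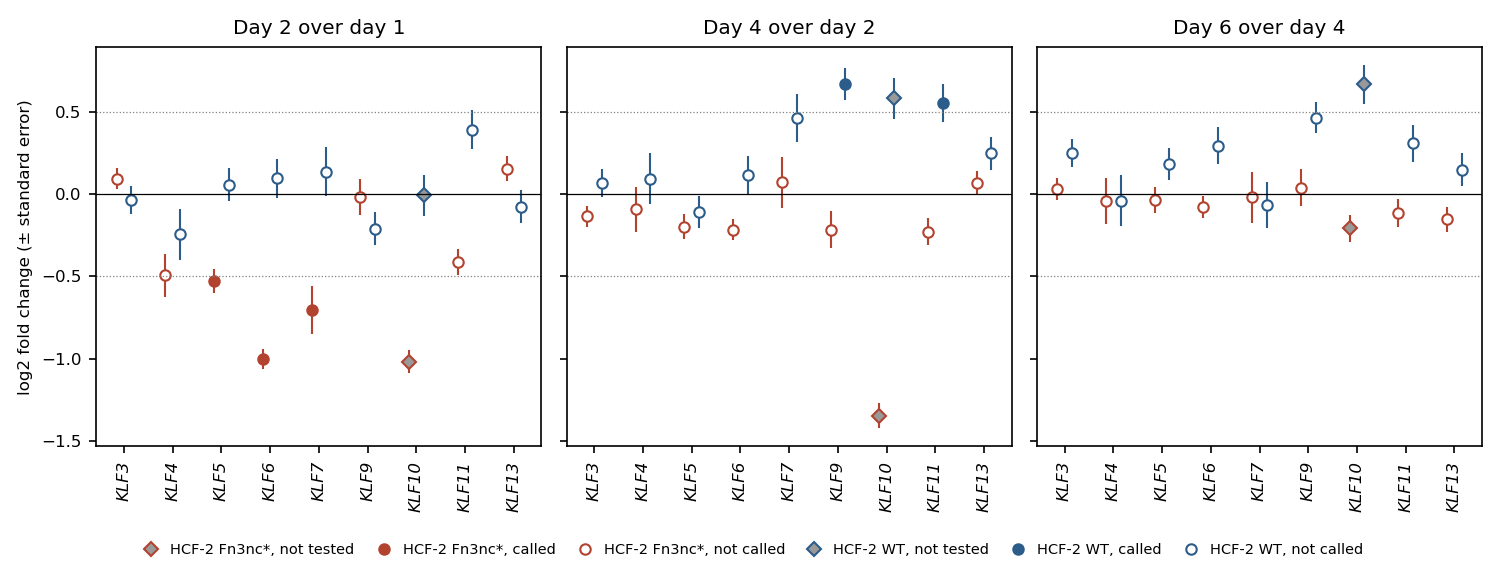
Log2 fold change of each step between successive days (vertical axis, with its standard error) for the 9 genes past the filter on low values, in each cell line. Dotted lines mark changes of 0.5, filled circles are called, open circles are not, and grey diamonds are KLF10, which was not tested; KLF5, KLF6 and KLF7 are called in HCF-2 Fn3nc* in the first step, KLF9 and KLF11 in HCF-2 WT in the second, and KLF10 in HCF-2 Fn3nc* is at -1.02 in the first step and -1.35 in the second.

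Between days 2 and 4, KLF9 and KLF11 of the SIN3A-binding branch rose in HCF-2 WT cells. KLF9, a glucocorticoid- and thyroid-hormone-responsive gene, was at 50.8 and 42.6 CPM on day 4 against 29.2 and 29.6 CPM on day 2 (log2 fold change 0.67 ± 0.10, adjusted p = 0.00191, edgeR). KLF11, a regulator known from pancreatic beta cells, was at 30.6 and 27.7 CPM on day 4 against 19.9 and 19.8 CPM on day 2 (log2 fold change 0.55 ± 0.11, adjusted p = 0.00943, edgeR). These were 2 of the 8 tested members, and 0 fell, where 5.63% of all genes rose and 2.25% fell. KLF10, untested, was at 0.58. For both KLF9 and KLF11 the day 4 libraries lay above the day 2 libraries, which restates calls made on the same libraries. KLF13, the last of the 10 genes in that branch and a regulator of CCL5 in T cells, had 36.1 and 35.9 CPM on day 4 and 28.6 and 32.0 CPM on day 2. Its log2 fold change was 0.25 ± 0.10 (adjusted p = 0.12, edgeR). KLF7 was at 0.46 ± 0.15 (adjusted p = 0.0534).

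KLF9 kept its call whichever library was left out, but KLF11 did not. Its adjusted p was 0.0801 without the first HCF-2 WT library of day 2 and 0.0606 without the second, and its log2 fold change was 0.47 without the first of day 4. Without the second library of day 4, the one with most genes detected, KLF9 was at 0.79 (adjusted p = 0.000492) and KLF11 at 0.62 (adjusted p = 0.00658). The counts over all genes were less steady, with 408 to 1122 genes called higher rather than 1066 and 206 to 918 called lower rather than 425 over the libraries left out. The lowest counts came without the first library of day 2, 623 were higher without the second of day 2, and 918 were lower without the second of day 4. Marker sums moved in this step too. Blood cell markers in HCF-2 WT were at 0.770 and 1.21 CPM on day 4 against 0.281 to 0.415 CPM on day 2, and hepatocyte markers at 0.342 and 0.623 CPM against 0.207 to 0.234 CPM. Endothelial markers were at 0.685 and 1.95 CPM on day 4 against 0.663 to 0.701 CPM on day 2, squamous epithelium markers at 0.214 and 0.896 CPM against 0.0415 to 0.327 CPM, and fibroblast markers at 7.02 and 10.0 CPM against 5.99 to 7.75 CPM. In each of these lists the higher day 4 sum was that of the second library, and CD3E was at 0 in 6 of the 8 WT libraries. The part of these markers in the KLF values was not tested.

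In HCF-2 Fn3nc* cells 0 of the 8 tested members were called between days 2 and 4 by edgeR or DESeq2, and 3 (KLF5, KLF6 and KLF11) had an unadjusted p under 0.05, beside 1.42% of all genes that fell and 0.116% that rose. KLF9 stood at 21.6 and 22.0 CPM on day 4 and 28.6 and 21.7 CPM on day 2, with overlapping duplicates. KLF11 was at 17.0 and 18.5 CPM on day 4 against 19.8 and 21.4 CPM on day 2 (log2 fold change -0.23 ± 0.08, adjusted p = 0.187, edgeR). As HCF-2 Fn3nc* minus HCF-2 WT, the difference between the 2 steps was -0.87 ± 0.15 for KLF9 (adjusted p = 0.00208) and -0.77 ± 0.14 for KLF11 (adjusted p = 0.00277) on the log2 scale by edgeR. These were 2 of the 8 tested members, both lower, against 5.75% of all genes called lower and 3.94% called higher. Both calls were made whichever library was left out, KLF9 at -1.02 and KLF11 at -0.86 without the second WT library of day 4.

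From day 4 to day 6, KLF9 stood at 64.4 and 66.6 CPM on day 6 against 50.8 and 42.6 CPM on day 4 in HCF-2 WT, with no overlap. Its log2 fold change of 0.46 ± 0.10 (adjusted p = 0.017, edgeR) fell short of a call, which it reached (0.60, adjusted p = 0.00901) without the first day 4 library. By edgeR 0 of the 8 tested members were called in this step, as were 0 by DESeq2. KLF3, KLF6, KLF9 and KLF11 had an unadjusted p under 0.05, each with a higher level on day 6, and KLF10 (log2 fold change 0.66) was not tested. Of all genes, 2.92% rose and 1.13% fell, but these 553 and 214 genes became 29 and 14 without the second library of day 6, 88 and 25 without the first, and 1176 and 387 without the second library of day 4, while 302 rose without the first of day 4. Without that second library of day 4, KLF9 was at 0.36 (adjusted p = 0.0186). In HCF-2 Fn3nc* cells 0 of the 8 tested members were called by edgeR or DESeq2, 0 had an unadjusted p under 0.05, and log2 fold changes lay between -0.15 (KLF13) and 0.04 (KLF9). Of all genes, 0.00528% rose and 0.0211% fell in that step.

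Over the whole course, which includes the contrast used for the choice, day 6 over day 1 changes of the members are described by size alone. In HCF-2 WT the fitted log2 change was higher by more than 0.5 for 5 members (KLF6, KLF7, KLF9, KLF10 and KLF11). In HCF-2 Fn3nc* it was lower by more than 0.5 for 6 members (KLF4, KLF5, KLF6, KLF7, KLF10 and KLF11). Of all genes, 13.2% were called higher and 8.04% lower in HCF-2 WT, and 8.89% higher and 15.4% lower in HCF-2 Fn3nc*. Those shares also need an adjusted p below 0.05, so they are not on the same measure as the member counts. Nearest the threshold of 0.5 were KLF6 and KLF7 in HCF-2 WT, at 0.50 and 0.53. The smallest counted change in HCF-2 Fn3nc* was that of KLF4, at -0.63. Among members not counted, the largest changes were KLF13 in HCF-2 WT, at 0.32, and KLF9 in HCF-2 Fn3nc*, at -0.20.

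The 2 cell lines were compared next on each day. On day 1, KLF6 had 59.3 and 60.4 CPM in HCF-2 Fn3nc* against 21.6 and 26.0 CPM in HCF-2 WT (log2 difference 1.33 ± 0.09, adjusted p = 2.34e-08, edgeR). KLF5 had 40.7 and 41.0 CPM against 19.7 and 18.7 CPM in the same order (1.09 ± 0.08, adjusted p = 3.27e-08). KLF11 was higher too, at 27.2 and 26.9 CPM in HCF-2 Fn3nc* and 13.4 and 17.1 CPM in HCF-2 WT (0.83 ± 0.10, adjusted p = 5.34e-06). KLF13 was lower, at 19.1 and 19.6 CPM in HCF-2 Fn3nc* and 32.6 and 31.5 CPM in HCF-2 WT (-0.73 ± 0.08, adjusted p = 3.11e-06). Hence 3 of the 8 tested members were higher and 1 lower in the mutant line, with a background of 18.7% of all genes higher and 15.5% lower. The duplicates of these 4 genes did not overlap between the cell lines, which restates calls made on the same libraries and is no added support. Marker sums differed on day 1 as well, with endothelial markers at 2.44 to 2.72 CPM in HCF-2 Fn3nc* against 0.791 to 0.817 CPM in HCF-2 WT and blood cell markers at 1.53 to 1.70 CPM against 0.220 to 0.454 CPM, and their part was not tested.

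On day 2, KLF5 was still higher, at 29.0 and 28.6 CPM in HCF-2 Fn3nc* and 20.9 and 18.9 CPM in HCF-2 WT (log2 difference 0.53 ± 0.08, adjusted p = 0.000156, edgeR). It was the 1 member called of the 8 tested, where 9.08% of all genes were higher and 7.57% lower. KLF5 lost its call (0.47) without the second HCF-2 WT library, and KLF13 gained one (-0.56) without the first. KLF6, at 30.2 and 30.3 CPM in HCF-2 Fn3nc* and 27.6 and 23.1 CPM in HCF-2 WT, differed by 0.25 ± 0.10 (adjusted p = 0.0567).

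By day 4 the members that differed were lower in the mutant line. KLF9 had 21.6 and 22.0 CPM in HCF-2 Fn3nc* against 50.8 and 42.6 CPM in HCF-2 WT (log2 difference -1.10 ± 0.11, adjusted p = 2.12e-06, edgeR). KLF7 had 4.95 and 5.42 CPM against 9.37 and 9.27 CPM (-0.84 ± 0.14, adjusted p = 0.000229), in that order of cell lines. KLF11 differed by -0.71 ± 0.10 and KLF13 by -0.64 ± 0.08 (adjusted p = 4.83e-05 and 2.51e-05). These 4 of the 8 tested members were lower and 0 higher, and 12.1% of all genes were lower and 10.1% higher. The same 4 were called without the second HCF-2 WT library, with KLF9 at -1.24 and KLF7 at -0.87. KLF5, at 24.4 and 26.2 CPM in HCF-2 Fn3nc* and 18.6 and 18.3 CPM in HCF-2 WT, differed by 0.46 ± 0.08 and was called (0.50, adjusted p = 0.00167) without the first HCF-2 Fn3nc* library.

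The same 4 genes were lower on day 6. KLF9 had 22.5 and 22.4 CPM in HCF-2 Fn3nc* against 64.4 and 66.6 CPM in HCF-2 WT (log2 difference -1.54 ± 0.11, adjusted p = 4.24e-08, edgeR), and KLF11 had 16.7 and 16.2 CPM against 36.2 and 37.1 CPM (-1.16 ± 0.10, adjusted p = 2.94e-07). KLF13 was at 21.4 and 20.2 CPM in HCF-2 Fn3nc* and 37.7 and 43.4 CPM in HCF-2 WT (-0.97 ± 0.08, adjusted p = 3.17e-07), and KLF7 differed by -0.82 ± 0.14 (adjusted p = 0.000226). Thus 4 of the 8 tested members were lower and 0 higher, beside 16.8% of all genes lower and 13.2% higher. KLF6, at -0.46 ± 0.10, was called (-0.53, adjusted p = 0.00272) without the first HCF-2 WT library. Tests of a step and of a day share libraries, so their values stand side by side here and are not independent of each other.

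**Figure D4:**
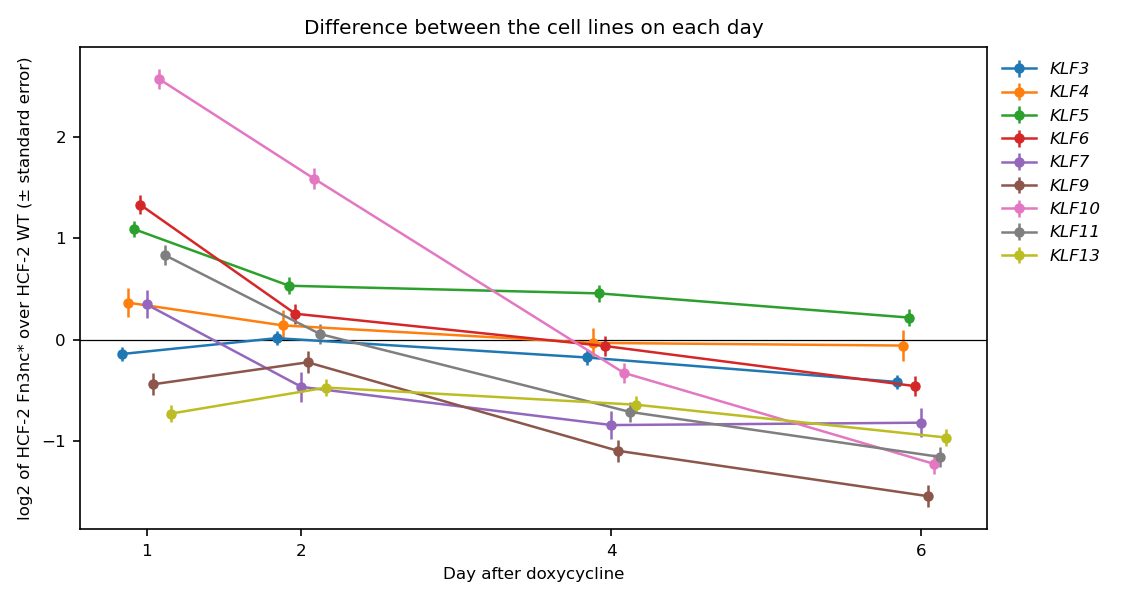
Log2 of HCF-2 Fn3nc* over HCF-2 WT (vertical axis, with standard error) for the 9 genes past the filter on each day after doxycycline, with points shifted slightly sideways for legibility. KLF10 runs from 2.57 on day 1 to -1.22 on day 6, KLF9 and KLF11 reach -1.54 and -1.16 on day 6, and KLF3 and KLF4 stay within 0.5 of 0; KLF10 was not tested on any day.

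KLF3, KLF4 and KLF2 complete the family. KLF3, the CtBP-dependent repressor, lay between 45.1 and 51.2 CPM in HCF-2 Fn3nc* and between 49.0 and 64.5 CPM in HCF-2 WT, and was called in 0 of its 12 tested comparisons. Its largest tested log2 difference, -0.42 ± 0.07 on day 6, had an adjusted p of 0.000148 (edgeR). KLF4 lay between 7.15 and 12.6 CPM in HCF-2 Fn3nc* and 6.64 and 9.34 CPM in HCF-2 WT. KLF2, the flow-responsive factor of endothelium and a gene of quiescent T cells, had only 5 to 36 expected counts and 0.22 to 0.82 FPKM per library, so it did not pass the filter and 9 of the 10 genes were in the fits. Its duplicates held 5 and 6 counts in HCF-2 Fn3nc* on day 6, against 24 and 36 counts in HCF-2 WT. In a fit without the filter, this difference was -2.23 ± 0.50 on the log2 scale (adjusted p = 7.65e-05, edgeR), the 1 call among its 12 comparisons outside day 6 over day 1.

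Across the 8 group means of log2 CPM, the members formed no single pattern, given here as a description with no p because groups of a cell line share its history. The KLF10 profile was closest to that of KLF6 (Pearson r 0.93), then KLF5 (0.79) and KLF4 (0.75), and was nearly unrelated to those of KLF9 (0.04) and KLF3 (0.07). KLF9 followed KLF3 (0.93) and KLF13 (0.91), while KLF5 and KLF13 ran against each other (-0.81). Among all other genes with a mean of 100 counts or more, the profiles most like KLF10 were those of MVP, SPHK1, ETHE1, GADD45A, KIF2C and HADHA (r 0.99 to 0.97). On day 1 MVP, the major vault protein gene, was at 35.1 CPM in HCF-2 Fn3nc* and 2.62 CPM in HCF-2 WT, and GADD45A, a stress-induced growth-arrest gene, at 106 and 18.7 CPM, both from group means of log2 values. The profiles most like KLF6 were those of TP53INP2, ICA1L, ZYX, MEF2A, TFE3 and RASEF (r 0.99 to 0.98).

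Of 16 other KLF and SP genes, 9 passed the filter. KLF12, KLF15 and KLF16 were the other Kruppel-like factors among them. In HCF-2 Fn3nc* cells 1 of the 9 fell from day 1 to day 2 and 0 rose, near the 10.7 and 4.18% of all genes that did so. The gene was SP2, at 5.28 and 5.22 CPM on day 2 against 10.5 and 10.7 CPM on day 1 (log2 fold change -1.03 ± 0.12, adjusted p = 0.000155, edgeR). Its duplicates on the 2 days did not overlap, which restates that call. KLF15, a glucocorticoid-responsive metabolic factor, was lower in HCF-2 Fn3nc* than in HCF-2 WT on all 4 days, by -0.71 on day 1 and -0.64 on day 6 (adjusted p = 0.00241 and 0.00582). Between days 2 and 4 in HCF-2 WT, 1 of the 9 rose and 0 fell, beside 5.63% of all genes that rose and 2.25% that fell. Their median log2 fold change was -0.06, and that of all genes 0.01. The median of 0.25 for the 9 members includes untested KLF10, so it is a description only.

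The partners and regulators of the family were looked at as lists. Of 16 cofactor and turnover genes, the acetyltransferase genes EP300 (log2 fold change -0.52 ± 0.08) and CREBBP (-0.63 ± 0.10) and the ubiquitin ligase gene FBXW7 (-0.52 ± 0.06) fell in HCF-2 Fn3nc* between days 1 and 2 (adjusted p = 0.000661, 0.00104 and 0.000225, edgeR), and 0 rose, where 10.7% of all genes fell and 4.18% rose. On day 1, 3 of the 16 were higher and 2 lower in HCF-2 Fn3nc* than in HCF-2 WT, near the 18.7% of all genes higher and 15.5% lower, with EP300 at 0.91 ± 0.10 and CTBP1, a KLF3 partner, at -0.73 ± 0.08 (adjusted p = 2.75e-06 and 1.1e-06). Of 14 genes upstream of KLF genes, 1 fell in that step, MEF2A (-0.67 ± 0.07, adjusted p = 0.000112), which drives KLF2 in endothelium. FOXO1 was higher in HCF-2 Fn3nc* on all 4 days, by 0.57 to 0.88 on the log2 scale.

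Immediate-early genes, switched on within minutes by growth factors or stress, fell in HCF-2 Fn3nc* in the same step as KLF6. Of 10 that passed the filter, 9 fell and 0 rose in HCF-2 Fn3nc* between days 1 and 2, beside 10.7 and 4.18% of all genes, with a median log2 fold change of -0.94 against -0.03 for all genes. EGR1 was at 8.05 and 11.4 CPM on day 2 against 36.1 and 35.5 CPM on day 1 (-1.90 ± 0.14, adjusted p = 1.54e-05, edgeR), and FOS changed by -1.63 ± 0.17 (adjusted p = 8.24e-05). On day 1, 9 of the 10 were higher in HCF-2 Fn3nc* than in HCF-2 WT, EGR1 by 3.38 ± 0.19 (adjusted p = 2.26e-09), and 0 were lower, beside 18.7% of all genes higher and 15.5% lower. Between days 2 and 4 in HCF-2 WT, 5 of the 10 rose and 0 fell, beside 5.63 and 2.25% of all genes, EGR1 by 1.33 ± 0.20 and ATF3 by 0.97 ± 0.10 (adjusted p = 0.00201 and 0.00045). The part of such signals in the KLF values was not tested.

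Glucocorticoid-responsive genes, a group to which KLF9 belongs by its known regulation, had 5 of 13 members that rose and 0 that fell in HCF-2 WT between days 2 and 4, beside 5.63 and 2.25% of all genes. TSC22D3, the gene of the glucocorticoid-induced leucine zipper, was at 344 and 338 CPM on day 4 against 85.9 and 98.0 CPM on day 2 (log2 fold change 1.89 ± 0.11, adjusted p = 2.44e-05, edgeR). NFKBIA and CEBPB rose by 1.17 ± 0.11 and 1.09 ± 0.12 (adjusted p = 0.000235 and 0.000639). On day 1, 4 of the 13 were higher in HCF-2 Fn3nc* than in HCF-2 WT (DUSP1 by 1.43 ± 0.10) and 4 lower (TSC22D3 by -1.53 ± 0.11), beside 18.7% of all genes higher and 15.5% lower.

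TGF-β early genes, which share the known inducer of KLF10 and KLF11, were mixed as well. Of 11 past the filter, 3 fell and 1 rose in HCF-2 Fn3nc* between days 1 and 2, beside 10.7 and 4.18% of all genes. BHLHE40, a transcriptional repressor of the circadian clock, changed by -1.18 ± 0.09 (adjusted p = 2.12e-05), and ID2, an inhibitor of basic helix-loop-helix factors, by 0.58 ± 0.07 (adjusted p = 0.000161). In HCF-2 WT between days 2 and 4, 3 rose, among them LTBP2 (1.10 ± 0.16, adjusted p = 0.00191), and 2 fell, ID3 (-1.02 ± 0.10, adjusted p = 0.000294) and ID1 (-0.81 ± 0.17, adjusted p = 0.0102), beside 5.63% of all genes that rose and 2.25% that fell. On day 1, 6 of the 11 were higher in HCF-2 Fn3nc* than in HCF-2 WT and 0 lower, beside 18.7% of all genes higher and 15.5% lower.

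Among 9 measured genes that Kruppel-like factors are known to bind or set, CDKN1A, the gene of the cyclin-dependent kinase inhibitor p21, was called in both of the first steps in HCF-2 Fn3nc*. Its duplicates in HCF-2 Fn3nc* were at 109 and 109 CPM on day 1, 46.3 and 51.9 on day 2, 25.4 and 29.4 on day 4, and 26.4 and 27.9 on day 6, and those in HCF-2 WT at 45.6 and 48.8, 36.9 and 38.8, 50.6 and 46.0, and 55.2 and 57.7 CPM. It fell by 1.17 ± 0.08 between days 1 and 2 and by 0.85 ± 0.09 between days 2 and 4 in HCF-2 Fn3nc* on the log2 scale (adjusted p = 1.18e-05 and 0.000632, edgeR). In all, 2 of the 9 fell and 1 rose in the first of these steps, and 2 fell and 0 rose in the second, beside 10.7 and 4.18% of all genes in the first and 1.42 and 0.116% in the second. CCND1, the cyclin D1 gene, was lower in HCF-2 Fn3nc* on every day, by -1.12 on day 1 and -0.95 on day 6. In HCF-2 WT between days 2 and 4, PDGFA alone of the 9 was called, rising by 0.73 ± 0.13 (adjusted p = 0.00431).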

How the data were processed

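Poly(A) RNA from 16 libraries in 8 groups (cell line by day, from the labels) was measured. The authors prepared libraries with the NEXTflex qRNA-seq Kit, sequenced single-end reads, aligned them with STAR to GRCh37 and estimated counts with RSEM 1.3.0. The deposited values are the authors' expected counts, which need not be whole, and FPKM. The sources used here do not say whether the kit's molecular labels were used. Gene positions are from GENCODE on GRCh37, of another release than the authors'.

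Expected counts were rounded. The 18925 of 57820 genes whose FPKM exceeded 1 in any library entered edgeR 4.0.16 (R 4.3.3), which gave quasi-likelihood tests after TMM scaling, with Benjamini-Hochberg adjustment over all 18925. A gene was called where its adjusted p was below 0.05 and its log2 change was larger than 0.5 in size. Steps between days were fitted on the 8 libraries of a cell line, and differences between cell lines and between steps on all 16. The test was tried on simulated counts. KLF10 was tested in no comparison, since its course chose the genes (tests planned for it on days 2 and 4 are given as values only), and day 6 over day 1 was not tested for any member. Members and lists were chosen with earlier results of these data known. Named genes were all members, up to 4 called genes per list and comparison by size of change (mean count of at least 100), and the 6 profiles most like KLF10 and KLF6. Values are mean or fitted change ± standard error with 2 libraries per group. Duplicates differed by more than sampling noise (chi-square per gene 2.57 to 17.6). Where a left-out library leaves 1 in its group, that one is assumed to vary like the other groups. Alternatives were DESeq2 1.42.0, RLE scaling, other filters, a replicate block, 1 fit for all libraries, and each library left out.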

Additional observations from a re-analysis of the deposited data

Results flagged for a closer look

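Between days 1 and 2, the change in HCF-2 Fn3nc* differed from that in HCF-2 WT for KLF6 (-1.07 on the log2 scale), KLF5 (-0.56), KLF7 (-0.81) and KLF11 (-0.78), by the test of the difference between the 2 changes. Between days 2 and 4 it differed for KLF9 (-0.87) and KLF11 (-0.77). The groups had 2 libraries each, too few to test whether a library stood apart from its group for single genes.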

How the results depend on the processing

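The members' fold changes were refitted under 5 alternatives run on every comparison (DESeq2, RLE scaling, the 2 other filters and the replicate block). Direction and call were kept in all but 3 of 630, the 3 being without a filter. These 630 include KLF10 and the day 6 over day 1 changes, which are descriptions and not tested results. Without a filter, KLF9 was called lower in HCF-2 Fn3nc* on day 1 (-0.50), and the day 6 over day 1 changes of KLF6 and KLF7 in HCF-2 WT were 0.47 and 0.49, short of 0.5. With each library left out in turn, these day 6 over day 1 changes in HCF-2 WT went down to 0.374 for KLF6 and 0.365 for KLF7. Calls of tested members that changed with a library left out are given beside the results above. No fold change that was called reversed. Leaving out both HCF-2 Fn3nc* libraries of day 1, chosen after seeing the data, could be done only for comparisons that do not use them. There it changed 0 of 54 values, those of untested KLF10 included, in direction or call. It cannot show how far the day 1 results depend on those libraries.

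The replicate numbers did not pair the samples (r from -0.22 to 0.21 over 28 pairs of groups). With them as a replicate block, the tested members called for day 4 over day 2 stayed at 2 in HCF-2 WT and 0 in HCF-2 Fn3nc*. Calls over all genes for WT day 2 over day 1 were then 3 higher and 30 lower rather than 5 and 52. Those for Fn3nc* day 4 over day 2 were 11 higher rather than 22.

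Counts over all genes moved by over 1.5 times in several comparisons. With 1 library left out, WT day 6 over day 4 had 29 to 1176 higher (553 with all) and 14 to 387 lower (214), WT day 4 over day 2 had 408 to 1122 higher (1066) and 206 to 918 lower (425), WT day 2 over day 1 had 0 to 16 higher (5) and 1 to 83 lower (52), Fn3nc* day 4 over day 2 had 5 to 61 higher (22), Fn3nc* day 6 over day 4 had 0 to 4 higher (1) and 0 to 6 lower (4), and the differences between steps had 402 to 981 higher (737) for day 2 over day 1, and 435 to 1226 higher (746) and 716 to 1383 lower (1089) for day 4 over day 2, lowest without the first WT library of day 2 and highest without the second of day 4. Under other settings, for WT day 2 over day 1, DESeq2 gave 10 higher, no filter 94 higher and 132 lower, FPKM above 1 in all libraries 3 higher, and 1 fit of 16 libraries 13 higher and 89 lower. For Fn3nc* day 4 over day 2 (22 higher, 269 lower), no filter gave 6 higher, the stricter filter 151 lower, 1 fit of 16 libraries 9 higher, and the fit without day 1 libraries 12 higher and 171 lower. For Fn3nc* day 6 over day 4 (1 higher, 4 lower), DESeq2 gave 4 higher and 9 lower, no filter 2 higher, and the other 3 fits 0 higher. Without a filter there were 747 rather than 425 lower for WT day 4 over day 2, 368 rather than 214 lower for WT day 6 over day 4 (139 by DESeq2), and 1185 rather than 746 higher for the difference between the day 4 over day 2 changes. With the stricter filter, which tests fewer genes, 692 rather than 1066 were higher for WT day 4 over day 2, 1329 rather than 2027 lower for Fn3nc* day 2 over day 1, and 1104 rather than 1719 higher in Fn3nc* on day 2. Other causes were not tested. KLF2, with 5 to 36 counts, and KLF7, with 99 to 266, were the members limited by depth.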
